A study of Mus musculus with 12 samples.

Results

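The 10 genes described here belong to the hypoxia response: the oxygen-regulated subunits of the hypoxia-inducible factors (HIFs), Hif1a and Epas1, the prolyl hydroxylases Egln1, Egln2 and Egln3, and 5 HIF targets outside glycolysis, Vegfa, Adm, Ankrd37, Ndrg1 and Ddit4. They were taken by name from the 53700 genes of a count table, and all 10 were found and had enough reads to be tested. RNA-Seq compared 6 ac-WT with 6 ac-CYB5R3-KO whole hearts. CYB5R3 is a flavoprotein that reduces cytochrome b5, heme proteins and coenzyme Q. All mice were male and carried Myh6-CreERT2, a Cre recombinase that is driven by the cardiomyocyte promoter Myh6 and becomes active with tamoxifen. The Cyb5r3 alleles were wild-type in ac-WT mice (CYB5R3wt/wt) and floxed in ac-CYB5R3-KO mice (CYB5R3fl/fl). Both groups received tamoxifen at 33 mg/kg/d for 5 days, beginning at an age of 10 to 13 weeks, and the hearts were taken 5 days after treatment. The deletion is therefore confined by design to cardiomyocytes, whereas the RNA came from every cell type of the heart. Each library came from a different mouse.

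In cells with enough oxygen, the EGLN enzymes hydroxylate prolines of HIF-1α (encoded by Hif1a) and HIF-2α (encoded by Epas1), which marks them for ubiquitination by the VHL complex and degradation. When oxygen, iron or 2-oxoglutarate is short, the α subunits escape this, pair with ARNT and bind hypoxia response elements, short DNA sequences with the core RCGTG. HIF activity is thus set mainly at the protein level, which RNA-Seq does not measure, and is read here only through the transcripts of HIF targets. Egln3 is itself a well-known HIF target, and in many tissues its transcript is among the more inducible of the family.

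The sequence before the transcription start was available for 8 of the 10 genes, from the promoter set of RefSeq on GRCm38.p6, and Epas1 and Ndrg1 had no entry. It was searched for the 2 forms of the HIF core, ACGTG and GCGTG, on both strands in the 250 bases before the start. A palindromic CACGTG counts once on each strand. At least 1 core was present in the upstream-most window of 7 of these 8 genes and the form ACGTG in 6 of them. For comparison, 38.6% of all 32851 mouse promoters of the same length held a core, and 53.6% of the 12688 promoters of genes tested in these hearts. The form ACGTG was present in 16.6% of all promoters. Egln3 had a single ACGTG, 229 bases before the start. Ankrd37 had 4 cores, at 241, 155, 152 and 6 bases before the start, and at least 3 cores were found in 6.58% of all promoters. The windows of Ddit4, Egln1 and Adm held 2 cores each, and that of Hif1a held 3. Egln2 had 4 in the upstream of its 2 windows and 1 in the other. Vegfa had 0 in the window before its upstream start and 2 in the window of an internal start. A match shows that these letters are present, not that HIF binds there. The windows of the genes that the results below turn on, and of Ddit4 for its 2 forms of the core, are printed from 5′ to 3′ on the strand of the gene, with the cores in capitals. They lie at chr12:54203875-54204124 (minus strand), chr8:45999851-46000100 (minus strand), chr10:59951771-59952020 (minus strand) and chr17:46032378-46032627 (minus strand).
Egln3: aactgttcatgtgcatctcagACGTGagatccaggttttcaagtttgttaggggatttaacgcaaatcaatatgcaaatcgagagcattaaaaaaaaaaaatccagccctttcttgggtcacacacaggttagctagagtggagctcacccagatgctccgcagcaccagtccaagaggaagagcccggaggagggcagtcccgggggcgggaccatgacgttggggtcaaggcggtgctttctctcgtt
Ankrd37: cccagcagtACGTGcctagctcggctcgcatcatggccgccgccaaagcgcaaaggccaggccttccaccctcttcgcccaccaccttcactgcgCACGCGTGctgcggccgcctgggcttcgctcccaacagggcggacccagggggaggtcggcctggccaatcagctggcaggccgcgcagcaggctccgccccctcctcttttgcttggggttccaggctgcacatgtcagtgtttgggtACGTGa
Ddit4: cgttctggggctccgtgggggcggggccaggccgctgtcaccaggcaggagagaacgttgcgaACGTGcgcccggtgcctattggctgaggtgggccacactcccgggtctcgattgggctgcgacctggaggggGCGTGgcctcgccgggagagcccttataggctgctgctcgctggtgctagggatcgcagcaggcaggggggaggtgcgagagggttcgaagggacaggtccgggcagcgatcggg
Vegfa, upstream start: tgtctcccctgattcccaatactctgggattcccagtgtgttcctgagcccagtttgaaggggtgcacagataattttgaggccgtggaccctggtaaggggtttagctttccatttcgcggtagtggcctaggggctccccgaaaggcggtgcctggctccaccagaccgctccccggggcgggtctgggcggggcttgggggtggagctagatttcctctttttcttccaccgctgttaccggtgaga

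Between 43393183 and 53754284 reads were counted on genes per heart, and no library stood apart by depth. By composition, ac-WT hearts 2 and 3 did: their TMM factors, which correct the library size for reads taken up by a few abundant genes, were 0.570 and 0.723, against 0.988 to 1.22 in the other 10 hearts. The summed level of 10 cardiomyocyte markers was 48756 and 38464 CPM in these 2 hearts and 16011 to 28196 CPM in the others, and that of 8 fibroblast markers was 1561 and 1755 CPM against 5084 to 9687 CPM. Mitochondrial genes took 35.3% and 34.8% of their counts, against 24.0% to 30.1% in the others. CPM denotes the counts of a gene scaled to the TMM-corrected library size. Results that rest on these 2 hearts are given with and without them. Cyb5r3, the deleted gene, averaged 126 CPM with an SD of 38.4 over 6 ac-WT hearts, against 53.7 CPM with an SD of 9.07 over 6 ac-CYB5R3-KO hearts, without overlap, and fell by 1.22 on the log2 scale (SE 0.19; adjusted p = 0.0450 by edgeR's quasi-likelihood test). Of 17847 genes tested by edgeR, 18 (0.101%) passed an adjusted p of 0.05 and 820 (4.59%) an unadjusted p of 0.01, among which 237 (1.33%) were higher and 583 (3.27%) lower in ac-CYB5R3-KO hearts.

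The comparison asked whether transcripts of the hypoxia pathway differed between the genotypes. None of the 10 genes passed the adjusted threshold in edgeR, and none did in DESeq2 or limma-voom. At an unadjusted p under 0.01, 1 gene (Egln3) was higher and 0 were lower, and at an unadjusted p under 0.05, which 14.6% of all tested genes reached, there were 2 (Egln3 and Epas1). In 0 of the 10 genes were the 6 ac-CYB5R3-KO hearts apart from the 6 ac-WT hearts, as they were for 1.55% of all genes. The log2 fold change was above 0 in 3 genes (Egln3, Ankrd37 and Hif1a) and below 0 in 7, with a median of -0.09 against -0.01 over all tested genes.

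**Figure D1:**
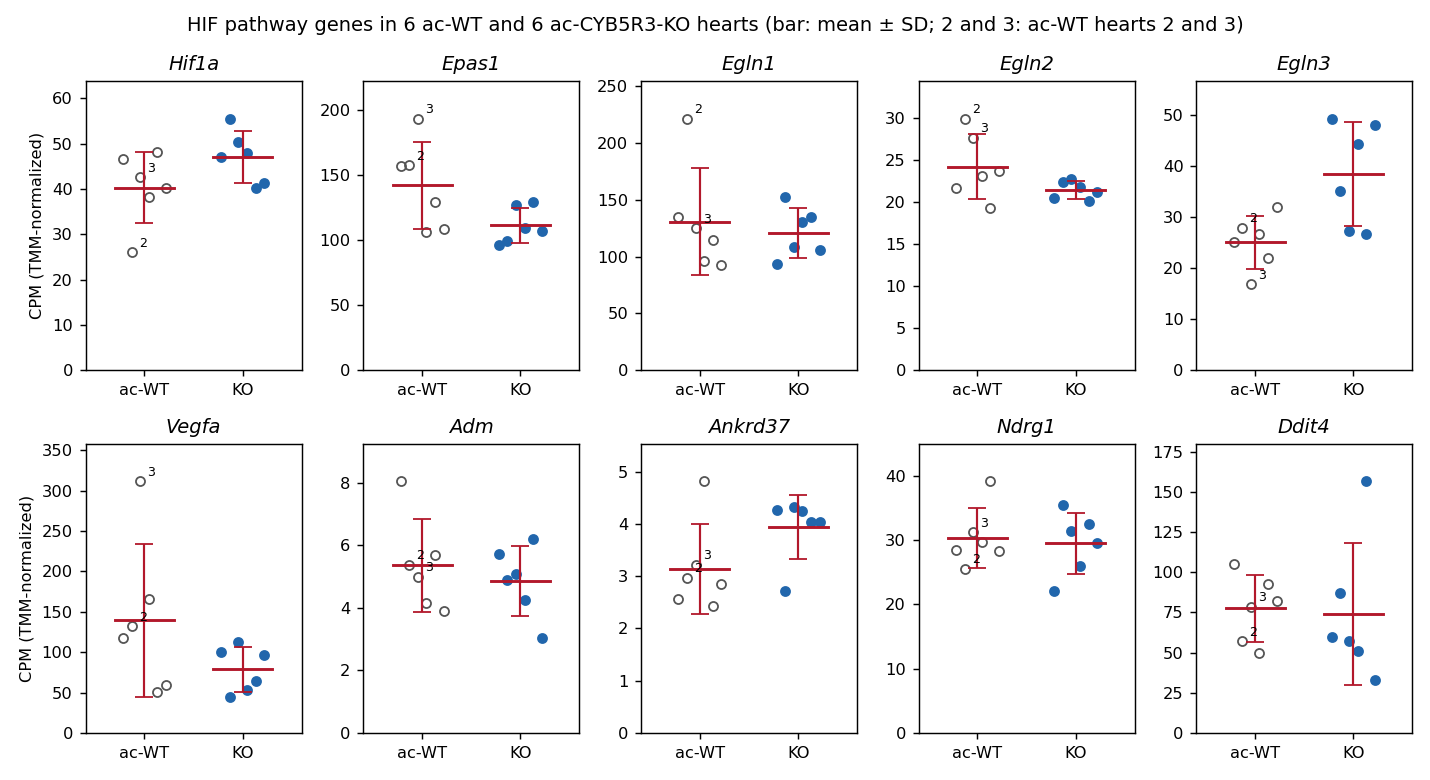
Level of each of the 10 genes in every heart, in TMM-normalized CPM on axes that start at 0 (open circles, 6 ac-WT hearts; filled circles, 6 ac-CYB5R3-KO hearts; red bars, mean ± SD). Egln3 was above the ac-WT maximum of 31.9 CPM in 4 ac-CYB5R3-KO hearts, the groups overlap in every panel, and ac-WT heart 3 holds the highest Vegfa value, 311 CPM.

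Among the HIF α subunits, Hif1a (chr12:75002362-75048517, plus strand, positions on NCBIM37 here and for the genes that follow) encodes HIF-1α, which drives much of the acute response to low oxygen. Its level was lowest at 26.1, with a median of 41.4 and a highest value of 48.3 CPM in ac-WT hearts, and ran from 40.2 through a median of 47.4 to 55.5 CPM in ac-CYB5R3-KO hearts. Only ac-WT heart 2 lay well below the rest, and 2 ac-CYB5R3-KO hearts exceeded every ac-WT heart. The log2 difference was 0.22 (95% interval -0.08 to 0.52), with an adjusted p of 0.473 by edgeR and a p of 0.117 by the two-sided exact permutation test. It was 0.13 without ac-WT heart 2, 0.13 without ac-WT hearts 2 and 3, and 0.45 with total counts, where the median of all genes was 0.26.

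Epas1 (chr17:87153247-87232750, plus strand) encodes HIF-2α, which is prominent in endothelial cells. Its level ran from 107 through a median of 143 to 193 CPM in the ac-WT hearts and from 96.5 through 108 to 129 CPM in ac-CYB5R3-KO hearts. All 6 ac-CYB5R3-KO hearts were below the ac-WT median, but only 2 were below the lowest ac-WT heart. The log2 difference was -0.35 ± 0.15 (SE; n = 6 hearts per group) with an unadjusted p of 0.0368 and an adjusted p of 0.307 by edgeR, and p = 0.0606 by the exact permutation test. The 3 highest values were those of ac-WT hearts 3, 2 and 1, and without hearts 2 and 3 the log2 difference was -0.16. Dividing by total counts in place of TMM gave -0.03, against a median of 0.26 over all genes on that scale.
The summed level of 10 endothelial markers spanned 398 to 836 CPM in ac-WT and 443 to 754 CPM in ac-CYB5R3-KO hearts. In RNA of whole hearts, fewer cells of a type cannot be told apart from less RNA per cell.

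Egln3 (chr12:55279968-55304847, minus strand) encodes PHD3, the prolyl hydroxylase that acts preferentially on HIF-2α and is abundant in heart. Its level in ac-WT hearts 1 to 6 was 25.1, 27.9, 16.8, 26.7, 21.9 and 31.9 CPM. In ac-CYB5R3-KO hearts 1 to 6 it was 49.2, 35.0, 27.2, 44.2, 26.7 and 48.0 CPM. All 6 ac-CYB5R3-KO hearts were above the ac-WT median of 25.9 CPM and 4 were above every ac-WT heart, while hearts 3 and 5 lay within the ac-WT range. The means were 25.05 ± 5.21 CPM and 38.4 ± 10.2 CPM (SD, n = 6 each), a 1.53-fold difference with a 95% interval of 1.16 to 2.03. The unadjusted p was 0.00559 and the adjusted p 0.194 by edgeR. The two-sided exact permutation test over 924 placements of the hearts gave p = 0.0195, where the smallest p it can give is 0.00216.

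Egln3 was the 1 gene of the 10 whose 95% interval excluded 0 under TMM, under total counts and without ac-WT hearts 2 and 3. Its log2 difference of 0.62 became 0.85 with total counts (exact permutation test, p = 0.00866) and 0.55 without these 2 hearts (edgeR, unadjusted p = 0.0142; exact permutation test, p = 0.0571, where the smallest possible p is 0.00476). With total counts the median of all genes was 0.26, and Egln3 lay 0.60 above that median, against 0.62 under TMM. Over 20 alternative fits its log2 difference ran from 0.53 to 0.85, with adjusted p between 0.0740 in DESeq2 and 0.466. Leaving out any 1 of ac-WT hearts 1, 3 and 5 or ac-CYB5R3-KO hearts 1, 4 and 6 brought the unadjusted p above 0.01, to between 0.0107 and 0.0157.

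Egln1 (chr8:127432496-127473154, minus strand) encodes PHD2, the main hydroxylase that holds HIF-1α down in normal oxygen, and was the most abundant of the 3 per length. Its level ran from 92.4 through a median of 120 to 221 CPM in the ac-WT hearts and from 93.8 through 119 to 153 CPM in ac-CYB5R3-KO hearts. The medians nearly coincided, and the value of 221 CPM came from ac-WT heart 2. The log2 difference was -0.11 (95% interval -0.55 to 0.33; edgeR, adjusted p = 0.820), and it turned to 0.11 without ac-WT heart 2 and to 0.24 with total counts.

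Egln2 (chr7:27943677-27951821, minus strand) encodes PHD1. It ran from 19.3 through a median of 23.4 to 29.9 CPM in the ac-WT hearts and from 20.1 through 21.6 to 22.7 CPM in ac-CYB5R3-KO hearts. The ac-CYB5R3-KO hearts were close together, with a coefficient of variation of 4.88% against 16.1% in ac-WT hearts, where hearts 2 and 3 were the highest. The medians of that coefficient over all tested genes were 15.7% and 24.9%. The log2 difference was -0.17 (95% interval -0.40 to 0.05; edgeR, adjusted p = 0.459), -0.09 without ac-WT heart 2, -0.018 without ac-WT hearts 2 and 3, and 0.14 with total counts. With a difference of 0.62 for Egln3 and intervals around 0 for Egln1 and Egln2, the 3 hydroxylase transcripts had unequal estimates, but the difference between them was not tested.

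Vegfa (chr17:46153942-46169326, minus strand) encodes the main angiogenic growth factor downstream of HIF. It was at 117, 132, 311, 166, 50.4 and 59.5 CPM in ac-WT hearts 1 to 6. In ac-CYB5R3-KO hearts 1 to 6 it was at 100, 44.99, 113, 53.5, 64.3 and 96.8 CPM. The 4 highest values were those of ac-WT hearts 1 to 4, while ac-WT hearts 5 and 6 were as low as the lower ac-CYB5R3-KO hearts. The means were 139 ± 94.97 CPM and 78.7 ± 28.0 CPM (SD, n = 6 each).
The log2 difference of -0.82 was the largest of the 10 in size and had the widest interval (-1.67 to 0.02; edgeR, unadjusted p = 0.0554, adjusted p = 0.351; exact permutation test, p = 0.182). It was -0.41 without ac-WT heart 3, -0.31 without ac-WT hearts 2 and 3, and -0.43 with total counts.

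Ankrd37 (chr8:47082256-47085221, minus strand), a small ankyrin-repeat protein whose gene is a direct HIF-1 target, was the least abundant member. It ran from 2.44 through a median of 2.91 to 4.81 CPM in the ac-WT hearts and from 2.72 through 4.15 to 4.33 CPM in ac-CYB5R3-KO hearts. In each group 1 heart fell apart from its group, ac-WT heart 4 at 4.81 CPM and ac-CYB5R3-KO heart 2 at 2.72 CPM, and 5 of 6 ac-CYB5R3-KO hearts were above the ac-WT median. The log2 difference was 0.33 (95% interval -0.06 to 0.71; edgeR, unadjusted p = 0.0896, adjusted p = 0.414; exact permutation test, p = 0.0801). It was 0.49 without ac-WT heart 4 (edgeR, unadjusted p = 0.00628) and 0.42 without ac-CYB5R3-KO heart 2 (edgeR, unadjusted p = 0.0289). With 1 heart left out it was lowest without ac-WT heart 5, at 0.26 (edgeR, unadjusted p = 0.178). Without ac-WT hearts 2 and 3 it was 0.33 (edgeR, unadjusted p = 0.132). With total counts it was 0.59 (edgeR, unadjusted p = 0.0269), against a median of 0.26 over all genes. Its locus overlaps Ufsp2 on the opposite strand, which had 10053 reads over all hearts against 2096 for Ankrd37. The library kit was stranded, but the strand setting of the counting is not stated, so a share of Ufsp2 reads in the Ankrd37 value cannot be told apart.

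Adm, Ndrg1 and Ddit4 showed log2 differences of -0.14, -0.04 and -0.06, with adjusted p of 0.765, 0.892 and 0.937 by edgeR. Adm (chr7:117771175-117773331, plus strand) encodes the vasodilator adrenomedullin. It ran from 3.89 through a median of 5.19 to 8.05 CPM in the ac-WT hearts and from 3.05 through 4.99 to 6.22 CPM in ac-CYB5R3-KO hearts, and the interval of its difference was -0.56 to 0.29. The ranges overlapped, and the highest value was that of ac-WT heart 1, without which the difference was 0.017.
Ndrg1 (chr15:66760883-66801202, minus strand), a stress-responsive protein linked to differentiation and lipid traffic, ran from 25.5 through 29.1 to 39.2 CPM in the ac-WT hearts and from 22.1 through 30.5 to 35.5 CPM in ac-CYB5R3-KO hearts. With an interval of -0.32 to 0.23 it bounded a difference more tightly than Adm did.
Ddit4 (chr10:59412423-59414518, minus strand) encodes REDD1, a stress-induced brake on mTORC1. It ran from 49.9 through 80.2 to 105 CPM in the ac-WT hearts and from 32.6 through 58.5 to 156 CPM in ac-CYB5R3-KO hearts. The 156 CPM of ac-CYB5R3-KO heart 5 was the highest of all 12 hearts and the 32.6 CPM of heart 6 the lowest. Without heart 5 the log2 difference was -0.43 in place of -0.06 (edgeR, unadjusted p = 0.103), and the interval with all hearts was -0.75 to 0.62.

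**Figure D2:**
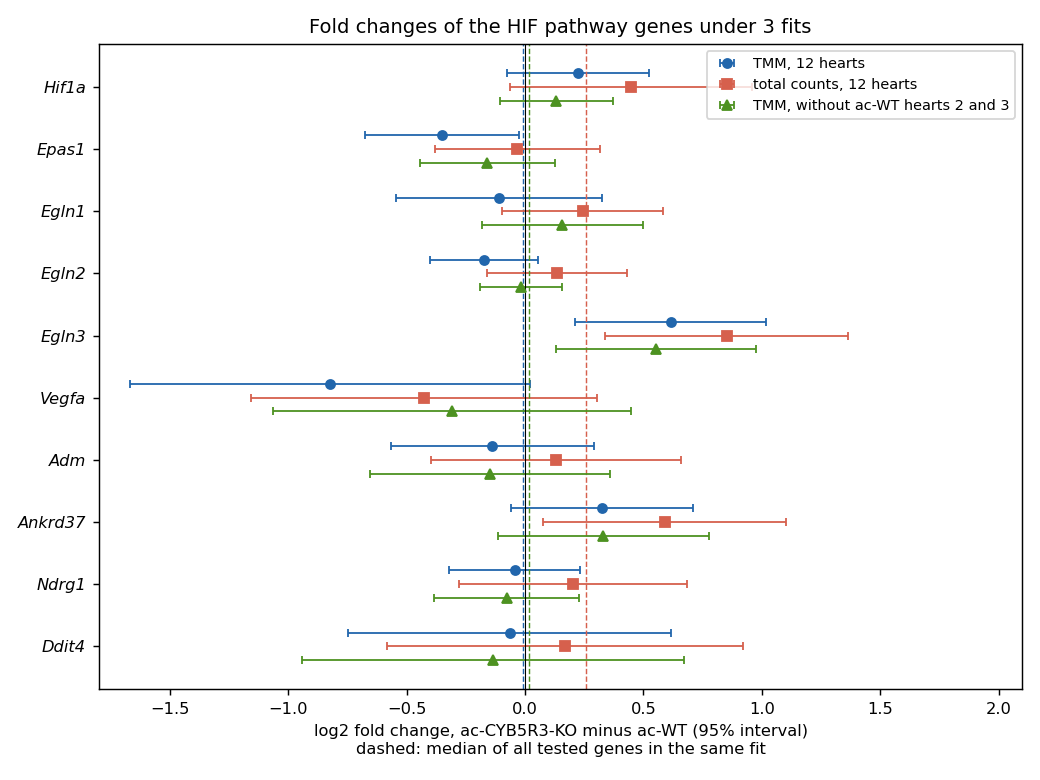
Log2 difference of each gene, ac-CYB5R3-KO minus ac-WT, with its 95% interval, under TMM with 12 hearts (circles), total counts with 12 hearts (squares) and TMM without ac-WT hearts 2 and 3 (triangles), where dashed lines mark the median of all tested genes in each fit. Egln3 lies to the right of 0 in all 3 fits (0.62, 0.85 and 0.55), and the squares are displaced together with their all-gene median of 0.26.

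To compare genes with one another, CPM was divided by the exon length of each gene in kilobases. In ac-WT hearts the mean level fell into an upper set of Ddit4 (46.0 CPM per kilobase), Egln1 (37.2), Vegfa (32.5) and Epas1 (26.8) and a lower set of Egln3 (9.41), Egln2 (8.66), Hif1a (6.84), Ndrg1 (4.61), Adm (3.86) and Ankrd37 (2.24). Between neighbours in this order the ranges over hearts overlapped everywhere except from Epas1 (lowest 20.1 CPM per kilobase) to Egln3 (highest 11.99 CPM per kilobase). In ac-CYB5R3-KO hearts the order was Ddit4 (44.0 CPM per kilobase), Egln1 (34.4), Epas1 (21.0), Vegfa (18.3), Egln3 (14.4), Hif1a (7.98), Egln2 (7.67), Ndrg1 (4.48), Adm (3.51) and Ankrd37 (2.81). There, neighbours were apart from Egln1 to Epas1, from Egln3 to Hif1a and from Egln2 to Ndrg1. Egln3 overlapped Vegfa in ac-CYB5R3-KO hearts and lay nearest to Egln2 in ac-WT hearts. The lowest Epas1 level, 18.2 CPM per kilobase, was above the highest Hif1a level, 9.42 CPM per kilobase.

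**Figure D3:**
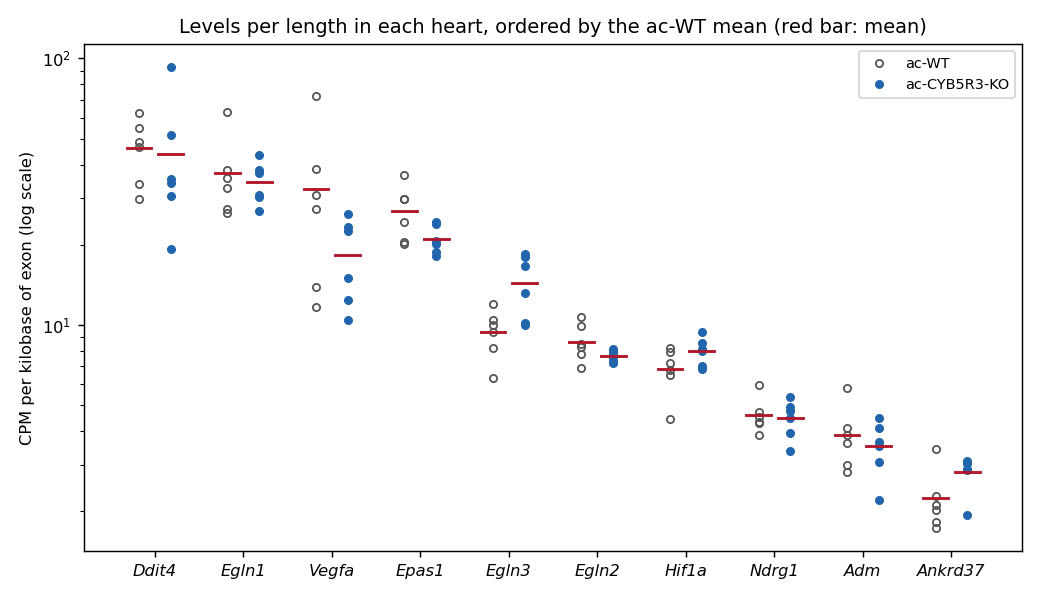
Level of each gene per kilobase of exon in every heart, on a log scale, in the order of the ac-WT means (open, ac-WT; filled, ac-CYB5R3-KO; red bars, means). The gap between Epas1 (26.8 CPM per kilobase) and Egln3 (9.41 CPM per kilobase) in ac-WT hearts is the one place in that group where neighbours do not overlap.

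How the genes varied together was examined over the 12 hearts after removal of the group means, on log2(CPM + 1). Of the 45 pairs, 20 had a positive Pearson r, and 0 had an adjusted p under 0.05 in permutation tests within groups. By Pearson r, the strongest positive relation was that of Adm and Ddit4 (r = 0.703, permutation p = 0.0135, adjusted p = 0.304; Spearman rho = 0.650, permutation p = 0.0347, adjusted p = 0.391), and r was 0.562 without the 2 hearts farthest from the median of Adm and 0.731 without ac-WT hearts 2 and 3. The strongest negative r was that of Epas1 and Egln3 (r = -0.680, permutation p = 0.0111, adjusted p = 0.304; rho = -0.664, permutation p = 0.0252, adjusted p = 0.377), with r of -0.647 without the 2 farthest hearts and -0.650 without ac-WT hearts 2 and 3. The largest rho in size was that of Egln3 and Ndrg1, -0.755 (permutation p = 0.0108, adjusted p = 0.242), where r was -0.625 (permutation p = 0.0470, adjusted p = 0.538), -0.578 without the 2 farthest hearts and -0.704 without ac-WT hearts 2 and 3. Vegfa and Ankrd37 had the highest positive rho, 0.734 (permutation p = 0.00637, adjusted p = 0.242; r = 0.568, permutation p = 0.0913, adjusted p = 0.538), and r was 0.616 without the 2 farthest hearts and 0.714 without ac-WT hearts 2 and 3. Egln3 and Vegfa had r = -0.263 (permutation p = 0.402, adjusted p = 0.624; rho = -0.175, permutation p = 0.595, adjusted p = 0.745), and r was -0.480 without the 2 farthest hearts and turned to 0.0735 without ac-WT hearts 2 and 3.

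The tested genes whose deviations followed those of Egln3 most closely over the 12 hearts were Cyp51 (r = 0.882), a gene without a symbol in the tables used here (ENSMUSG00000100160, r = 0.878), Bambi (r = 0.866), Bcl2l2 (r = 0.865) and Sergef (r = 0.863). Cyp51 encodes a sterol demethylase, Bambi a pseudoreceptor of TGF-β signalling and Bcl2l2 an antiapoptotic protein. For Vegfa they were Zfp445 (r = 0.988), Srrm1 (r = 0.988), Solh (r = 0.986), Mdm4 (r = 0.985) and Rbm25 (r = 0.984). Srrm1 and Rbm25 act in pre-mRNA splicing, and Mdm4 restrains p53. These 10 genes are outside the HIF lists used here, and without ac-WT hearts 2 and 3 their r was between 0.820 and 0.984. These genes were picked as the highest r of 17847, which is a description and carries no test.

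The rest of the pathway was described from lists of HIF subunits, regulators and targets, of which 80 of 82 genes could be tested (Epo and Car12 had too few reads). In edgeR, 0 of the 80 passed the adjusted threshold and 5 had an unadjusted p under 0.01, 3 higher and 2 lower, where 4.59% of all genes did. At an unadjusted p under 0.05 there were 18, against 14.6% of all genes. The HIF targets among them, 65 tested genes in 4 lists, were higher in 47 and lower in 18, with a median log2 difference of 0.15 against -0.01 over all genes. Of all tested genes, 48.8% were higher. With total counts the median of the HIF targets was 0.40 against 0.26 over all genes, and without ac-WT hearts 2 and 3 it was 0.12 against 0.02.

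Of single genes in these lists, Edn1, which encodes the vasoconstrictor endothelin-1, was the clearest. It ran from 5.59 through a median of 6.40 to 6.80 CPM in the ac-WT hearts and from 7.82 through 9.31 to 11.6 CPM in ac-CYB5R3-KO hearts. The groups did not overlap, as was so for 1.55% of all tested genes. The log2 difference was 0.59 ± 0.11 (SE) with an unadjusted p of 0.000146 and an adjusted p of 0.0790 by edgeR (exact permutation test, p = 0.00216, the smallest it can give), and DESeq2 gave an adjusted p of 0.000403.
Bnip3 and Bnip3l, mitochondrial outer membrane proteins that act as receptors for mitophagy, were both higher. Bnip3 was at 33.01 ± 11.97 and 56.7 ± 13.0 CPM (SD, n = 6 each), with a log2 difference of 0.78 (edgeR, unadjusted p = 0.00429, adjusted p = 0.188). Bnip3l was at 49.9 ± 6.74 and 63.3 ± 5.40 CPM, with a difference of 0.34 (edgeR, unadjusted p = 0.00609, adjusted p = 0.197). For both, 1 or more ac-CYB5R3-KO hearts lay within the ac-WT range.

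Pgf, which encodes placental growth factor, a ligand of the VEGF receptor FLT1, was at 4.61 ± 1.55 and 2.79 ± 0.503 CPM (SD, n = 6 each), with a log2 difference of -0.71 (edgeR, unadjusted p = 0.00385, adjusted p = 0.186). Selenbp1, a methanethiol oxidase, was at 34.0 ± 15.3 and 19.7 ± 5.25 CPM, with a difference of -0.79 (edgeR, unadjusted p = 0.00832, adjusted p = 0.211). The highest values of both came from ac-WT hearts 2 and 3, and without these 2 hearts the difference was -0.36 for Pgf and -0.38 for Selenbp1, with unadjusted p of 0.0271 and 0.0730 by edgeR. Bnip3 was then at 0.55 and Bnip3l at 0.25, with unadjusted p of 0.0123 and 0.0117 by edgeR. Edn1 was at 0.64 without them, with an unadjusted p of 0.000227 and an adjusted p of 0.110 by edgeR. DESeq2 called 3 of the 80 genes at an adjusted p under 0.05, Edn1, Bnip3 (0.0484) and Pgf (0.0450). At the same threshold DESeq2 called 437 of all 17847 tested genes.

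**Figure D4:**
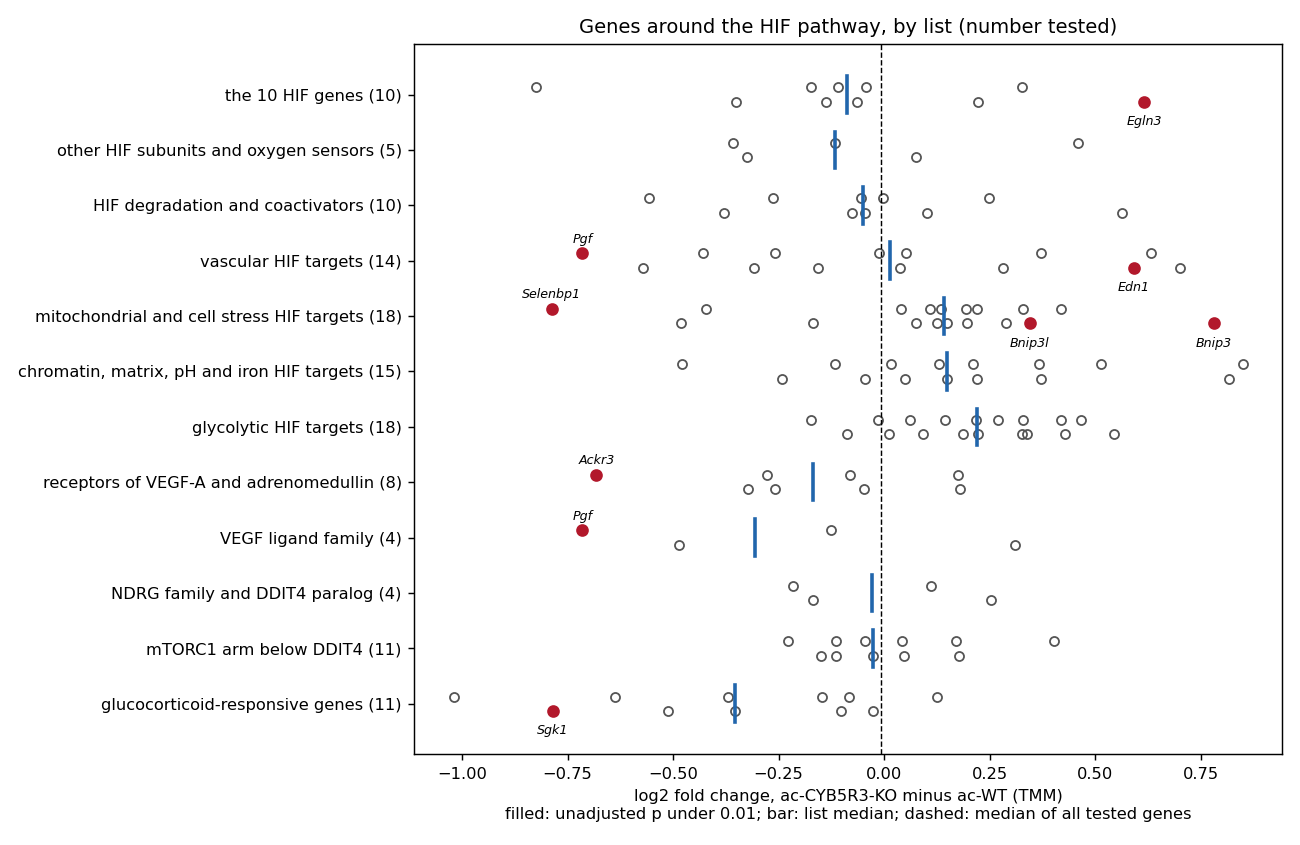
Log2 difference, ac-CYB5R3-KO minus ac-WT, of each tested gene in the HIF pathway and neighbouring lists under TMM (filled and named, unadjusted p under 0.01; blue bars, list medians; dashed line, the all-gene median of -0.01). Pgf belongs to 2 of the lists, and the medians run from -0.35 for glucocorticoid-responsive genes to 0.22 for glycolytic HIF targets.

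List by list, the other HIF subunits and oxygen sensors had a median of -0.12 over 5 genes. Those with the lowest p were P4htm, a transmembrane prolyl hydroxylase, at -0.32 (edgeR, adjusted p = 0.410) and Arnt2, a partner of the α subunits, at 0.46 (adjusted p = 0.565). Among 10 genes of HIF degradation and coactivation the median was -0.05. Cited2, which competes with HIF for its coactivator, was at 21.3 ± 4.78 and 31.4 ± 11.1 CPM, with a difference of 0.56 (edgeR, adjusted p = 0.253). Siah2, a ubiquitin ligase for prolyl hydroxylases including PHD3, was at 9.11 ± 4.12 and 6.16 ± 0.434 CPM (SD, n = 6 each), with a difference of -0.56 (edgeR, adjusted p = 0.254) and no overlap between the groups. Of all tested genes, 1.55% had no overlap between the groups. The difference of Siah2 was -0.26 without ac-WT hearts 2 and 3.

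Of the target lists, 14 vascular genes had a median of 0.01 and split evenly, 7 higher and 7 lower, and the median was -0.06 without ac-WT hearts 2 and 3. The 18 mitochondrial and cell stress targets had a median of 0.14, with 14 higher. The 15 chromatin, matrix, pH and iron targets had a median of 0.15, with 11 higher, or 8 without these 2 hearts. Lowest in p there were Car9, a carbonic anhydrase often used as a marker of hypoxia, at 0.85 with at most 1.12 CPM in any heart (edgeR, adjusted p = 0.221), and P4ha1, a collagen prolyl hydroxylase, at 0.37 (adjusted p = 0.267). The 18 glycolytic targets had the highest median, 0.22, with 15 higher. Pkm, the pyruvate kinase of muscle, was at 399 ± 44.6 and 552 ± 122 CPM (SD, n = 6 each), with an unadjusted p of 0.0107 and an adjusted p of 0.220 by edgeR. Pgk1, phosphoglycerate kinase, had a difference of 0.42 (edgeR, unadjusted p = 0.0219, adjusted p = 0.265). With total counts all 18 glycolytic genes were above 0, with a median of 0.45 against 0.26 over all genes.

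The ligands and receptors around Vegfa and Adm were lower in most genes. Of the 4 other VEGF-family ligands, 3 were lower and 1 (Vegfc) was higher, with a median of -0.31, and 1 (Pgf, above) had an unadjusted p under 0.01. With total counts 2 of the 4 were lower and the median was -0.02. Of 8 receptors of VEGF-A and adrenomedullin, 6 were lower, with a median of -0.17. Ackr3, a scavenging receptor for CXCL12 and adrenomedullin, lay between 21.0 and 56.1 CPM in ac-WT hearts. In ac-CYB5R3-KO hearts it lay between 18.5 and 25.8 CPM, with a difference of -0.68 (edgeR, unadjusted p = 0.00664, adjusted p = 0.200). The highest Ackr3 value was that of ac-WT heart 2, and without ac-WT hearts 2 and 3 the difference was -0.47 (edgeR, unadjusted p = 0.0404). With total counts 6 of these 8 were above 0 and the median was 0.12, against 0.26 over all genes.

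Around Ndrg1 and Ddit4, the other NDRG genes and Ddit4l had a median of -0.03, and 0 of 4 had an unadjusted p under 0.05 by edgeR. Ndrg4 was at 0.25 (adjusted p = 0.492) and Ddit4l at -0.22 (adjusted p = 0.580). With total counts 4 of 4 were above 0, and Ndrg4 was at 0.55 (edgeR, unadjusted p = 0.00570). Without ac-WT hearts 2 and 3, 3 of 4 were above 0, and Ndrg4 was at 0.40 (edgeR, unadjusted p = 0.0421). The 11 genes of the mTORC1 arm had a median of -0.03, again with 0 under 0.05 by edgeR, and lowest in p were Sesn3 at 0.40 (adjusted p = 0.425) and Tsc2 at -0.23 (adjusted p = 0.499). Of these 11 genes 5 were above 0, but 11 were without ac-WT hearts 2 and 3 (median 0.08) and 11 with total counts (median 0.25 against 0.26 over all genes), where 1 had an unadjusted p under 0.05 by edgeR. Ddit4 also responds to glucocorticoids, and 10 of 11 glucocorticoid-responsive genes were lower, with a median of -0.35. Among them Sgk1, a kinase that controls ion transport, was at 108 ± 33.2 and 62.5 ± 15.7 CPM (SD, n = 6 each), with a difference of -0.78 (edgeR, unadjusted p = 0.00420, adjusted p = 0.188). Without ac-WT hearts 2 and 3 the difference of Sgk1 was -0.64 (edgeR, unadjusted p = 0.0257) and the median of the list -0.22. DESeq2 had 1 of the 11 genes at an adjusted p under 0.05 and 2 at an unadjusted p under 0.01. It called 437 of all tested genes at an adjusted p under 0.05. With total counts 6 of the 11 were lower and the median was -0.06, against 0.26 over all genes.

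Among the marker lists of cell types, those of lymphocytes and of cartilage and airway had a p under 0.05 in the exact permutation test. This test used the mean log2(CPM + 1) of each list, not the summed level that is printed beside its p. Of 9 lymphocyte markers, 7 of the 8 tested were higher, Igkc and Jchain at an adjusted p under 0.05 by edgeR, and their summed level was 2.97 to 6.30 CPM in ac-WT and 8.47 to 21.5 CPM in ac-CYB5R3-KO hearts, with p = 0.00216 in the exact permutation test. Markers of this list with an adjusted p under 0.05 numbered 2 in edgeR, 3 in DESeq2, 1 with total counts, and 0 in limma-voom, with the replicate block and without ac-WT hearts 2 and 3, where 3 had an unadjusted p under 0.01. Of 8 cartilage and airway markers 5 were tested and 4 were higher, with a summed level of 4.40 to 41.0 and 59.0 to 129 CPM (exact permutation test, p = 0.00216), and Col9a1 and Scgb1a1 had at most 1 read in any heart. Markers of red blood cells summed to 232 to 4516 and 1338 to 12304 CPM, with 6 of 6 tested genes higher (exact permutation test, p = 0.0584; with total counts, p = 0.0173). Markers of cardiomyocytes summed to 21564 to 48756 CPM in ac-WT and 16011 to 28196 CPM in ac-CYB5R3-KO hearts, with p = 0.152 in the exact permutation test. For endothelial cells, fibroblasts, smooth muscle and pericytes, and macrophages the permutation p was 0.792, 0.403, 0.987 and 0.745, and adipocyte markers had at most 82 reads in any heart. These are means over each list, in which single markers went different ways. At an unadjusted p under 0.01 by edgeR, Acta2 (-0.89) and Myh11 (-0.93) of 7 smooth muscle and pericyte markers, Tnni3 (-1.01) and Myl2 (-1.22) of 10 cardiomyocyte markers and Cd163 (-0.96) of 7 macrophage markers were lower, and 2 smooth muscle and pericyte markers were higher at an unadjusted p under 0.05. Without ac-WT hearts 2 and 3 the macrophage list mean differed by -0.54 in place of -0.12 (exact permutation test, p = 0.114). Of its 7 markers, 7 were then lower, 2 at an unadjusted p under 0.01 and 4 under 0.05 by edgeR. The fibroblast list turned from 0.40 to -0.20 (exact permutation test, p = 0.238), with 7 of 8 markers lower. For cardiomyocytes, endothelial cells, and smooth muscle and pericytes the p of this test was then 0.690, 0.829 and 0.962. The part of these markers in the values of the HIF genes was not tested.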

How the data were processed

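Reads of whole-heart RNA (stranded total RNA kit, unpaired reads) were processed by the authors, who deposited counts, 1 whole number per Ensembl gene and library, neither normalized nor filtered. The paper describes STAR mapping to mm9 and FPKM tests, whereas the submitters' processing notes list STAR, featureCounts and GRCm39; the counts carry no coordinates, and the strand setting is not given in the sources used here. Groups and replicate numbers came from the sample labels, and 0 columns were left unused. Symbols were matched for 31027 of 53700 identifiers (57.8%), and 200 of the 202 listed symbols were found (9 through an older symbol). The 2 not found are beta-globin genes of the red blood cell markers.

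After filterByExpr (minimum count 10) and TMM normalization, 17847 genes were tested two-sided with edgeR 4.0.16 in R 4.3.3 (quasi-likelihood, no covariate, Benjamini-Hochberg adjustment). Thresholds were an adjusted p of 0.05 and unadjusted p of 0.01 and 0.05. Two-sided exact permutation tests and correlations used log2(CPM + 1), the correlations with 100000 permutations within groups and adjustment over 45 pairs. The libraries held 43393183 to 53754284 counts each, and the biological coefficient of variation was 26.5%. Without molecular identifiers, reads do not stand for separate molecules. Gene positions and exon lengths came from the GENCODE annotation of NCBIM37 (mm9), and promoters from RefSeq.

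Alternatives were DESeq2 1.42.0, limma-voom (limma 3.58.1), median-of-ratios factors, total counts, other filters, a replicate block, leaving out each heart, and leaving out ac-WT hearts 2 and 3. Marker lists and permutation tests were repeated with total counts and without these 2 hearts after the data were seen. Tests were checked on simulated counts. The 10 genes, the lists and the alternatives were chosen with earlier results of these data known. Named in the text were the 10 genes, genes of each HIF pathway list with an adjusted p under 0.05 or an unadjusted p under 0.01 (otherwise the 2 with the lowest p), the 5 genes closest to Egln3 and to Vegfa, and Cyb5r3; Vegfc, Epo, Car12, Ufsp2 and single marker genes were chosen once their values were known.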

Additional observations from a re-analysis of the deposited data

Results flagged for a closer look

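In 3 of the 20 sets of 6 hearts (10 genes in each group), the heart at one end lay far from the others by Dixon's criterion for 6 values, where chance marks about 1 in 20 sets. Egln1 was at 221 CPM in ac-WT heart 2, and the next highest ac-WT heart was at 135 CPM. Ankrd37 was at 4.81 CPM in ac-WT heart 4 against at most 3.22 CPM in the other ac-WT hearts. Ankrd37 was at 2.72 CPM in ac-CYB5R3-KO heart 2 against at least 4.03 CPM in the other ac-CYB5R3-KO hearts.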

How the results depend on the processing

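In neither the main fit nor the 20 alternative fits did any of the 10 genes reach an adjusted p of 0.05, and Egln3, Ankrd37 and Hif1a stayed above 0 and Epas1 and Vegfa below 0 in each. Total counts in place of TMM moved the median of all genes by 0.26 and turned Egln1 to 0.24, Egln2 to 0.14, Adm to 0.13, Ndrg1 to 0.20 and Ddit4 to 0.17, each below the median of all genes. Without ac-WT hearts 2 and 3 Egln1 was at 0.16. With 1 heart left out, Egln1 ran from -0.19 to 0.11 (above 0 without ac-WT heart 2), Adm from -0.22 to 0.017 (ac-WT 1), Ndrg1 from -0.10 to 0.041 (ac-WT 5, ac-CYB5R3-KO 1 and 4) and Ddit4 from -0.43 to 0.089 (ac-WT 1, ac-CYB5R3-KO 3, 4 and 6). HIF genes with an unadjusted p under 0.01 numbered 1 in the main fit, 0 without ac-WT hearts 2 and 3, and 0 to 2 with 1 heart left out (2 without ac-WT heart 4). Permutation p was under 0.05 for 1 HIF gene, for 3 with total counts (Egln3, Ankrd37 and Hif1a) and for 0 without the 2 hearts. No share over all tested genes is given for this test. With the median of all genes at 0.26 under total counts, the rise from 1 to 3 cannot be read as a result about these genes. Over all genes, 18 passed an adjusted p of 0.05 in edgeR, 437 in DESeq2, 2 in limma-voom, 8 with median-of-ratios factors, 8 with total counts, 35 with no filter, 7 without the 2 hearts, and 2 to 38 with 1 heart left out (most without ac-WT heart 4). An unadjusted p under 0.01 was found for 1238 genes in DESeq2, 426 with total counts, 426 without the 2 hearts and 463 to 1169 with 1 heart left out, against 820. Of the other HIF pathway genes, DESeq2 called 3 at an adjusted p of 0.05 and edgeR 0. Higher at an unadjusted p under 0.01 were 3 in edgeR, 5 in DESeq2, with total counts and with no filter, 1 without the 2 hearts, and 2 to 5 with 1 heart left out (5 without ac-WT 5, ac-WT 6 or ac-CYB5R3-KO 5). Lower were 2, 1 in limma-voom, 0 with total counts, 0 without the 2 hearts, and 0 to 3 with 1 heart left out (0 without ac-WT 3 or ac-CYB5R3-KO 4; 1 without ac-WT 2 or ac-CYB5R3-KO 1, 3, 5 or 6). The median of the HIF targets was 0.15, and 0.40 with total counts. Marker lists with a permutation p under 0.05 numbered 2, and 3 with total counts or without the 2 hearts, the red blood cell list being added. Cores of the HIF element were found in 43.8% of promoters over the 300-base window. The cause of these shifts was not tested. Mice with the same replicate number are different animals, and their deviations had a mean correlation of 0.133 (-0.160 to 0.360 over 6 pairs), with 3 of 6 ac-WT hearts correlating best with their own number. Over the 30 pairs with unlike numbers the mean correlation was -0.025. With the replicate block, 2 genes passed an adjusted p of 0.05, 672 an unadjusted p of 0.01, and Egln3 was at 0.60 (edgeR, unadjusted p = 0.000445, adjusted p = 0.136).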
